A study of Mus musculus with 4 samples.

Results

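The genes described here act on the cell cycle at the passage from G1 into S phase or in the response to stress: 3 Gadd45 genes, 6 genes for inhibitors of cyclin-dependent kinases, and Ccnd1, which encodes cyclin D1. The 10 were chosen by name, and each was read from the array row that carries its symbol alone, taking the row with the highest mean where a gene has several. Of the 10, 9 had such a row among the 22180 genes so named, and all 9 were detected. Gadd45a had no row of its own and was not analysed here.

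Cultured osteoblasts, the bone-forming cells, were compared between 2 groups of 2 arrays each. The Runx3f/f/Col1a1-cre group carries floxed Runx3, a gene for a Runt-family transcription factor, and a Cre recombinase under Col1a1, which is active in cells that make type I collagen. The WT group is wild type. Progenitors from neonatal mouse calvaria, the flat bones of the skull, were cultured for 21 days with ascorbate and glycerol phosphate before total RNA was hybridised to Affymetrix Mouse Gene ST arrays, with biological replicates 1 and 2 in each group. Strain and sex are not stated in the labels, and any deletion of Runx3 by this Cre would be limited to cells that have reached collagen production.

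Cyclin D1 binds CDK4 or CDK6, and the active kinases phosphorylate the retinoblastoma protein, which releases E2F factors and commits a cell to S phase. INK4 inhibitors bind CDK4 and CDK6 themselves, whereas CIP/KIP inhibitors bind cyclin-CDK complexes more broadly. Gadd45 proteins are small stress-inducible proteins that bind MAP3K4, upstream of the p38 and JNK kinases, and also contact PCNA and the CDK1-cyclin B complex. In the osteoblast lineage, exit from the cell cycle accompanies maturation.

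Levels are the deposited values, taken as log2, and every fold assumes that base. The targeted gene was read first, and its level was no lower in the group labelled Runx3f/f/Col1a1-cre. Runx3 read 7.94 and 8.06 on the Runx3f/f/Col1a1-cre arrays (replicates 1 and 2) and 7.45 and 7.87 on the WT arrays, which differ by 0.34 on the log2 scale (SE 0.20, adjusted p = 1 in limma). The labels name no deleted exon, so this row may not check the deletion, and the group is called mutant-labelled below. Within a replicate number, the mutant-labelled and WT arrays carried identical values (no tolerance) in 37.8% of all 41345 rows for replicate 1 and 45.1% for replicate 2, while arrays of different numbers shared a value in 0 rows. No source used here says how equal values arose, so an equal pair does not show that a gene had the same level. The tissue tag reads myoblast against the osteoblast titles. On the arrays Col1a1 stood above 99.9% of tested genes. Among myoblast markers, Myod1 and Myog read between 5.45 and 6.72, against a detection floor of 4.71. Des and Acta1 read higher, between 7.02 and 8.24. The median of 10 detected myoblast markers lay at a log2 difference of 0, with equal values in a replicate for 6. A difference between groups does not tell which cells were cultured.

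Of the 9 genes, Gadd45b and Gadd45g were higher in the mutant-labelled cultures of both replicates, by 1.97-fold and 2.59-fold on average. The CDK inhibitors differed by at most 0.18 log2 units on average, in either direction, and Ccnd1 was 1.24-fold lower. For Cdkn1c, Cdkn2a and Cdkn2c that average takes in equal values in replicate 2. Their differences in replicate 1 were -0.23, -0.35 and -0.028. In limma's moderated test across all genes, 0 of the 9 and 0 of 17841 genes (0.0%) passed an adjusted p of 0.05. Taking an unadjusted limma p under 0.05 together with a minimum of 1.5-fold, 2 of the 9 were higher and 0 lower, against 1.32% of tested genes higher and 1.26% lower. Without mutant-labelled replicate 2 the higher count was 1, Gadd45g. At least 1.5-fold in the same direction within both replicates, 2 of the 9 were higher, against 1.47% of tested genes, and 0 were lower, against 1.15%. Regardless of size, 4 of the 9 were higher within both replicates (16.8% of tested genes), 2 were lower (19.5%) and the other 3 held equal values in replicate 2. The shares of 16.8% and 19.5%, also given for the lists below, include genes with equal values in a replicate, which can count in neither. Among the 7076 tested genes with no equal values, 42.4% were higher and 49.1% lower within both replicates. The median log2 difference over the 9 was -0.014, beside 0 over all tested genes, and equal values enter both medians. The labels call the arrays biological replicates, without saying whether they came from separate animals or litters.

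**Figure D1:**
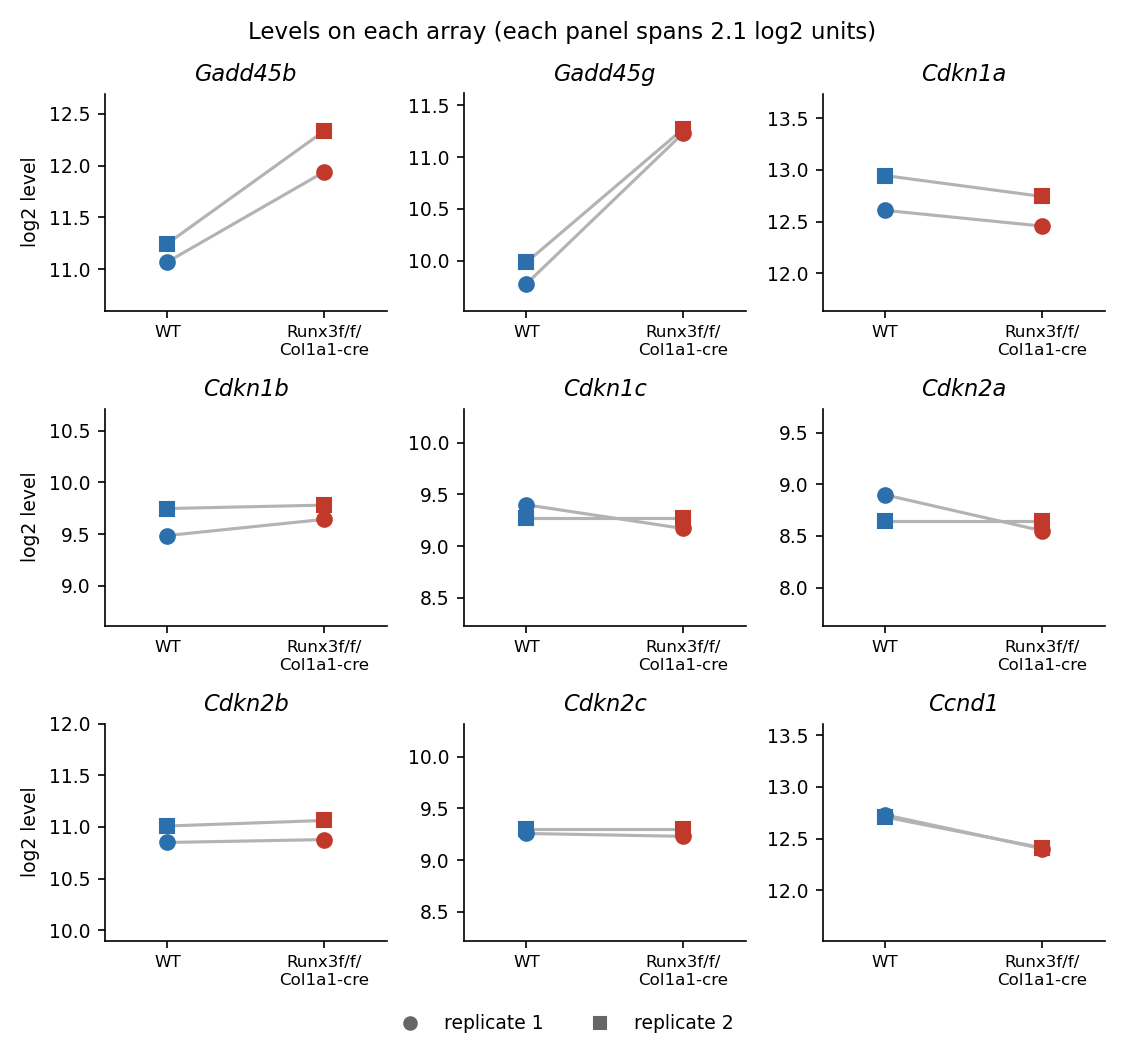
Deposited log2 level of each gene (vertical axis) on the WT arrays (blue) and the Runx3f/f/Col1a1-cre arrays (red), with circles for replicate 1, squares for replicate 2 and a grey line joining the arrays of one replicate number. Each panel spans 2.1 log2 units, so slopes can be compared: Gadd45b and Gadd45g climb in both replicates, Ccnd1 descends in both, and the inhibitors stay within 0.35 of their WT partner.

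Gadd45g, which encodes a stress-inducible protein known for driving p38 and JNK signalling, had the largest difference of the 9. Its level was 11.23 and 11.27 on the mutant-labelled arrays and 9.77 and 9.98 on the WT arrays. Both mutant-labelled values lay above both WT values, and the gap of 0.21 between the WT arrays was far smaller than the gap between groups. Means were 11.25 ± 0.03 and 9.88 ± 0.15 (SD, n = 2 each), a log2 difference of 1.37 (SE 0.14, 95% interval 0.97 to 1.78). Within replicate 1 the difference was 1.46 and within replicate 2 it was 1.29. The limma unadjusted p was 0.00104 and the adjusted p 0.324, where the smallest adjusted p of any gene was 0.312. With an intensity trend in the variance the limma adjusted p was 0.0263, in a fit that called 0.275% of tested genes. With quantile normalization again and the replicate block it was 0.0475, in a fit that called 1.88%. Only 38 of the 17841 tested genes, Gadd45g among them, were at least this much higher within both replicates.

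Gadd45b encodes the family member known as an immediate target of TGF-beta and NF-kB signalling. It read 11.94 and 12.33 on the mutant-labelled arrays and 11.07 and 11.25 on the WT arrays. The groups did not overlap, although the mutant-labelled arrays lay 0.40 apart, more than the 0.18 between the WT arrays. Means were 12.14 ± 0.28 and 11.16 ± 0.13 (SD, n = 2 each), a log2 difference of 0.98 (SE 0.20, 95% interval 0.40 to 1.56, limma unadjusted p = 0.0105, adjusted p = 0.713). The differences were 0.87 within replicate 1 and 1.09 within replicate 2, and 81 tested genes, with Gadd45b counted, were at least as far above WT in both. Unlike Gadd45g, Gadd45b stayed short of the adjusted threshold in every alternative fit, where its limma adjusted p ran from 0.0524 to 1.00.

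The starts of these genes are shown because both were higher together. The windows are RefSeq promoters on GRCm38.p6, from 250 bases before to 50 after the annotated start, read 5′ to 3′ on the plus strand. Gadd45b lies at chr10:80929841-80930140 and Gadd45g at chr13:51846425-51846724. Capitals mark matches, on either strand, to 6 letter patterns: the Runx core TGTGGT, the E-box CACGTG, the CCAAT box CCAAT, the TATA box TATAAA, the AP-1 site TGACTCA and the cyclic AMP response element TGACGTCA. The patterns were chosen after parts of these windows had been read.
Gadd45b: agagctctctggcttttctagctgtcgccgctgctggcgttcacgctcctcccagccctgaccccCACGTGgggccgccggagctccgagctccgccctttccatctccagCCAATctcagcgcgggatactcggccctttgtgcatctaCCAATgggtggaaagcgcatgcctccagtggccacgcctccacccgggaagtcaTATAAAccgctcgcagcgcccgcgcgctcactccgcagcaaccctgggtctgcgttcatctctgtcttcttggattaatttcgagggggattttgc
Gadd45g: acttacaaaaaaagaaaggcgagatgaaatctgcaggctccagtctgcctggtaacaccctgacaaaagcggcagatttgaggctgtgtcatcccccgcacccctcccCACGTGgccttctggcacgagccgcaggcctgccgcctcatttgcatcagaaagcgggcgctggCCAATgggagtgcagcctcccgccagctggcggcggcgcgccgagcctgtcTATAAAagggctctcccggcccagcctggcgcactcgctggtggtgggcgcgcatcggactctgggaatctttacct

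Both windows hold an E-box, at least 1 CCAAT box and a TATA box, in that order along the strand. The E-box began at -185 in Gadd45b and -142 in Gadd45g, and the TATA box at -46 and -27, counting the first base after the upstream stretch as 0. Windows were found for 8 of the 10 genes, 11 in all, since some genes have several starts. Of the 11 windows, 3 hold the E-box letters (with Cdkn2c), 6 the CCAAT letters and 2 the TATA letters. Of all 32851 windows in the RefSeq table, 7.15% hold the E-box letters, 37.4% the CCAAT letters and 13.6% the TATA letters. The Runx core letters were in 0 of the 11 windows, against 16.8% of all windows, and the AP-1 letters in 0, against 5.20%. The letters of the cyclic AMP response element were in 1 of the 11, that of Cdkn2b, against 1.79%. These matches describe letters, not binding.

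For each CIP/KIP gene the groups overlapped or shared a value, a comparison that sets replicate number aside. Cdkn1a, the inhibitor induced by p53, read 12.46 and 12.74 on the mutant-labelled arrays and 12.61 and 12.95 on the WT arrays. It was lower within both replicates, by -0.15 and -0.20, but the arrays of replicate 2 stood 0.29 and 0.34 above those of replicate 1, so the groups overlapped. The log2 difference was -0.18 (SE 0.20, 95% interval -0.76 to 0.41, limma adjusted p = 1). Its direction was opposite to that of Gadd45b and Gadd45g in both replicates. With the replicate block its limma p was 0.0376 unadjusted and 0.342 adjusted, where 13.0% of tested genes had an unadjusted p under 0.05.

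Cdkn1b, an inhibitor that holds quiescent cells in G1, read 9.64 and 9.78 on the mutant-labelled arrays against 9.49 and 9.75 on the WT arrays. Its log2 difference of 0.09 (SE 0.16, 95% interval -0.37 to 0.56, limma adjusted p = 1) was made up of 0.16 within replicate 1 and 0.033 within replicate 2. Cdkn1c, an imprinted inhibitor of growth, read 9.17 and 9.28 against 9.40 and 9.28. Its arrays of replicate 2 held exactly equal values, so the whole difference of -0.11 (95% interval -0.49 to 0.26) came from replicate 1.

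Of the INK4 genes, 0 of 3 passed the test. Cdkn2a, whose locus encodes both an INK4 inhibitor and, from another reading frame, the ARF protein that stabilises p53, read 8.55 and 8.64 on the mutant-labelled arrays and 8.90 and 8.64 on the WT arrays. Replicate 2 again held equal values, and replicate 1 differed by -0.35, for a mean of -0.17 (SE 0.15, 95% interval -0.62 to 0.27, limma adjusted p = 1). The array row does not tell apart the transcripts of this locus. Cdkn2b, its neighbour among protein-coding genes in the RefSeq table and a known TGF-beta target, read 10.88 and 11.06 against 10.85 and 11.01, a log2 difference of 0.041 (95% interval -0.39 to 0.47). Cdkn2c read 9.23 and 9.30 against 9.26 and 9.30, with equal values in replicate 2 and a mean difference of -0.014 (95% interval -0.36 to 0.33). Equal values in replicate 2 were held by 3 of the 9 genes, beside 50.2% of all tested genes. The widest interval for an inhibitor, that of Cdkn1a, runs from 0.589-fold to 1.33-fold.

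Ccnd1 encodes the cyclin that the INK4 proteins oppose. It read 12.40 and 12.41 on the mutant-labelled arrays and 12.73 and 12.71 on the WT arrays. The arrays of a group lay within 0.021 of each other, and both mutant-labelled values were below both WT values. Means were 12.407 ± 0.0065 and 12.719 ± 0.015 (SD, n = 2 each), a log2 difference of -0.31 (SE 0.11, 95% interval -0.65 to 0.024). The limma unadjusted p was 0.0606 and the adjusted p 1. With the replicate block the limma p was 0.00872 unadjusted and 0.212 adjusted. The differences of -0.33 and -0.30 within the replicates were matched or exceeded, in the lower direction, by 535 tested genes. Across the 9 genes, groups did not overlap for 2 higher genes, Gadd45b and Gadd45g (7.66% of tested genes), and for 1 lower gene, Ccnd1 (9.25%).

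**Figure D2:**
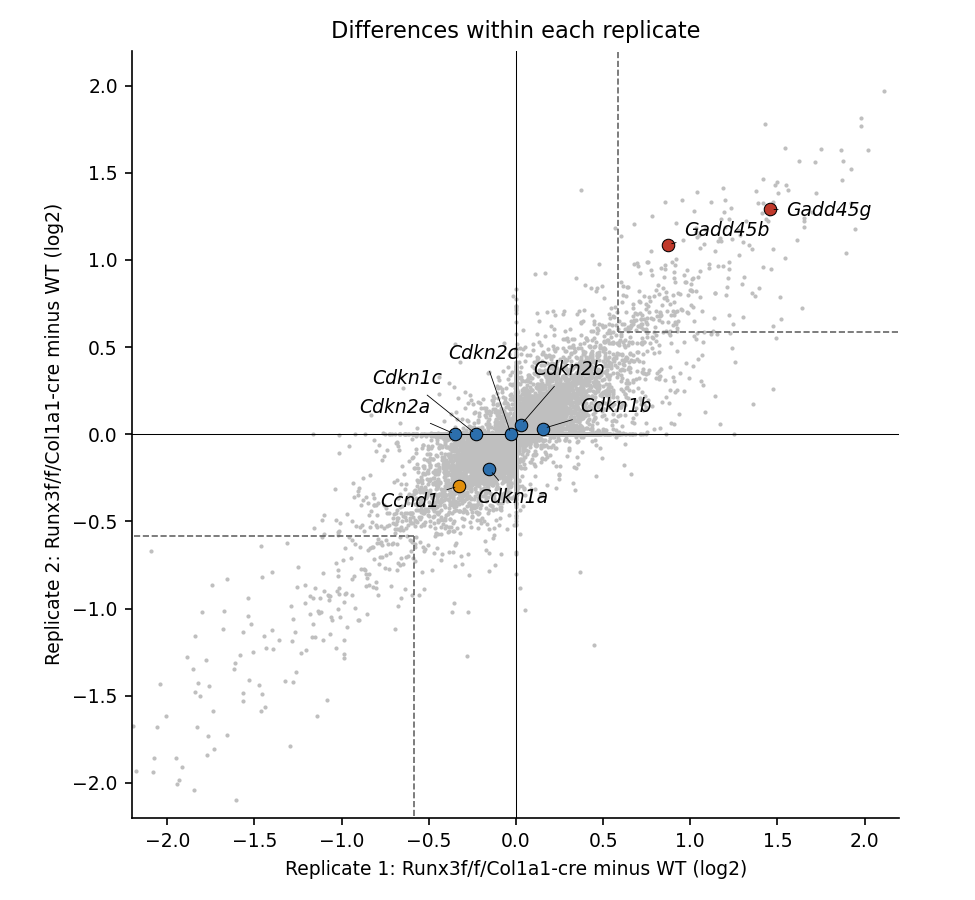
Log2 difference between Runx3f/f/Col1a1-cre and WT within replicate 1 (horizontal) and replicate 2 (vertical), with grey points for the tested genes, red for Gadd45 genes, blue for CDK inhibitors and orange for Ccnd1. Dashed lines mark 1.5-fold in both replicates. Gadd45b and Gadd45g lie beyond it and the other 7 genes inside, and 46 tested genes lie outside the axes.

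Other genes of the G1 machinery went in either direction. Of 21 detected (23 listed), 4 were higher and 9 lower within both replicates, against 16.8% and 19.5% of tested genes, 7 held equal values in a replicate, and the median difference was -0.044. At an unadjusted limma p under 0.05 there were 0, against 3.96% of tested genes. With the replicate block there were 6, against 13.0%, with an unadjusted limma p of 0.00671 for Myc and 0.00263 for Rbl1, and 0 past the adjusted threshold. Without the block, Myc, a transcription factor that promotes entry into S phase, had the smallest unadjusted limma p of the list, 0.0708. It read 10.21 and 10.70 on the mutant-labelled arrays and 9.54 and 9.98 on the WT arrays, and was 0.70 higher on the log2 scale (SE 0.27, adjusted p = 1 in limma, and 0.0466 with quantile normalization again and the replicate block). It was the 1 gene of this list at least 1.5-fold higher within both replicates. The other D-type cyclins differed less than Ccnd1, with Ccnd2 at -0.17 and Ccnd3 at 0.08. Their kinases Cdk4 and Cdk6 were at -0.15 and -0.044, and the retinoblastoma relative Rbl1 at -0.25.

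Of 29 detected proliferation genes, 24 were lower within both replicates and 0 higher, against 19.5% and 16.8% of tested genes, and the other 5 held equal values in a replicate. Among the 7076 tested genes with no equal values, 49.1% were lower and 42.4% higher within both. The median log2 difference was -0.32, with -0.31 in replicate 1 and -0.29 in replicate 2. Mcm6, a subunit of the replicative helicase, was at -0.66 (limma unadjusted p = 0.0107, adjusted p = 0.715). The mitotic genes Kif2c and Bub1 were at -0.56 and -0.51. At unadjusted p under 0.05 in limma there were 7 genes, against 3.96% of tested genes, and 15 with the replicate block, against 13.0%. Past the adjusted threshold there were 0. This list was known from earlier results of these data to be lower. Of the 6 CDK inhibitors, Cdkn1b and Cdkn2b were higher and Cdkn1a lower within both replicates, while Cdkn1c, Cdkn2a and Cdkn2c were at -0.23, -0.35 and -0.028 in replicate 1 and held equal values in replicate 2.

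Targets of p53 gave a median of -0.049 over 27 detected genes, with 3 higher and 13 lower within both replicates, against 16.8% and 19.5% of tested genes. The other 11 held equal values in a replicate. Ddit4, a stress-inducible inhibitor of mTORC1 that other stress pathways also induce, read 10.34 and 10.27 on the mutant-labelled arrays and 9.46 and 9.52 on the WT arrays, a log2 difference of 0.81 (SE 0.12, limma unadjusted p = 0.00371, adjusted p = 0.503). It was the 1 gene of the list past unadjusted p under 0.05 in limma, against 3.96% of tested genes. With the replicate block there were 6, against 13.0%. Ckap2 and Aen, a nuclease induced by p53, were at -0.38 each.

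Of 17 detected genes for the stress kinases that Gadd45 proteins act on and their substrates, 3 were higher and 5 lower within both replicates. The shares of tested genes were 16.8% and 19.5%. The other 9 held equal values in a replicate, so the median of 0 does not show an unchanged list. Jun, the AP-1 subunit that JNK phosphorylates, read 12.26 and 12.59 on the mutant-labelled arrays and 11.50 and 11.89 on the WT arrays, a log2 difference of 0.73 (limma unadjusted p = 0.0356, adjusted p = 1). Mapkapk2, a substrate of p38, was at -0.48 and the p38 activator Map2k3 at -0.24. The arrays measured RNA, and kinase activity was not measured.

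Among genes of the integrated stress response, the pathway through ATF4, 6 of 24 were higher and 12 lower within both replicates, against 16.8% and 19.5% of tested genes, with a median of -0.040. At an unadjusted limma p under 0.05 there were 7 of the 24, against 3.96% of tested genes, and 12 with the replicate block, against 13.0%. Past the adjusted threshold there were 0. Atf3, a stress-induced repressor, read 10.34 and 10.43 on the mutant-labelled arrays and 9.17 and 9.20 on the WT arrays, which is 1.20 higher on the log2 scale (SE 0.12, adjusted p = 0.324 in limma). Slc7a11, the cystine transporter, was at 3.70 and Nupr1 at 0.57. With an intensity trend the limma adjusted p was 0.0263 for Atf3 and 0.0295 for Slc7a11, and with quantile normalization again and the replicate block 0.0399 for each. The list was mixed in direction: Chac1, a target downstream of ATF4 that degrades glutathione, was at -0.78.

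Of 16 detected TGF-beta targets, 7 were higher and 4 lower within both replicates, against 16.8% and 19.5% of tested genes. Their median was 0.045, and 5 held equal values in a replicate. Tgfbi, a secreted matrix protein, was at -0.82 (limma unadjusted p = 0.00748, adjusted p = 0.627), Bhlhe40 at 0.61 (unadjusted p = 0.0101, adjusted p = 0.707, limma) and Klf10 at 0.32. At unadjusted p under 0.05 in limma there were 2 of the 16, against 3.96% of tested genes, and 8 with the replicate block, against 13.0%. Of 16 genes listed as FOXO factors and targets, 4 were higher and 3 lower within both replicates, beside the same 16.8% and 19.5%. The list also holds Gadd45gip1, which is not an established FOXO target and held equal values in both replicates. Equal values in a replicate were held by 7, so the median of 0 does not show an unchanged list. Past unadjusted p under 0.05 in limma there were 0, beside 3.96% of tested genes, and 3 with the replicate block, beside 13.0%. Irs2, an adaptor of the insulin receptor, was at 0.32, Bcl2l11 at 0.25 and Sesn3 at -0.14.

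**Figure D3:**
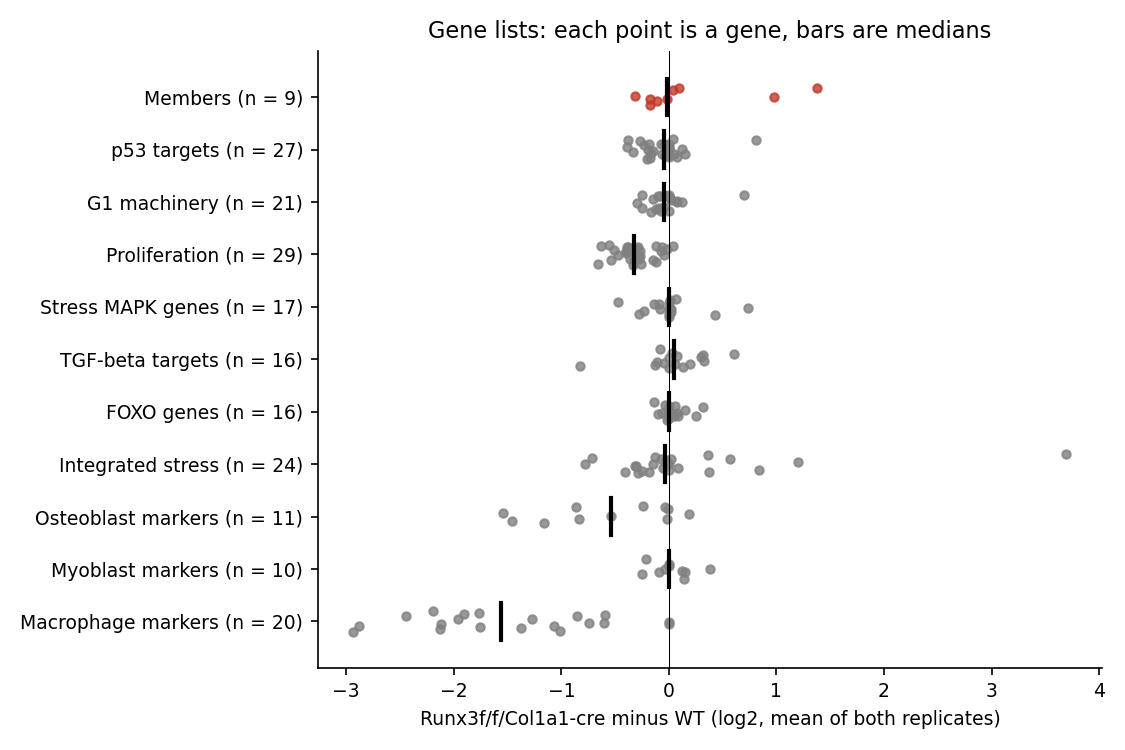
Log2 difference between Runx3f/f/Col1a1-cre and WT (horizontal axis, mean of both replicates) for each detected gene of a list, with black bars at list medians and n the genes detected. The members (red) centre near 0 with 2 points to the right, the proliferation median is -0.32, and the macrophage median is -1.57.

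Markers of macrophages, and some of osteoblasts, differed between the groups. Of 20 macrophage markers 18 were lower within both replicates and 0 higher, against 19.5% and 16.8% of tested genes, with a median of -1.57. Their mean level was 6.38 and 6.75 on the mutant-labelled arrays and 7.95 and 8.13 on the WT arrays, and Cx3cr1 and Aif1 held equal values within each replicate. Adgre1, which encodes F4/80, read 5.61 and 6.16 against 8.21 and 8.44. In such bulk RNA, fewer cells of a type and less RNA per cell cannot be told apart. Of 11 osteoblast markers, 7 were lower and 1 higher within both replicates, against 19.5% and 16.8% of tested genes. Their median was -0.54. Ibsp was at -1.55, Mepe at -1.16 and Ifitm5 at -0.87, whereas Col1a1 was at -0.010, Alpl at -0.035 and Sp7 at 0.19. Of the 10 myoblast markers, 2 were higher and 2 lower within both replicates, and 6 held equal values in a replicate. Des was at 0.38, Chrna1 at -0.25 (-0.49 in replicate 1 and -0.011 in replicate 2) and Pax7 at 0.15, with equal values in replicate 2. The part of any of these shifts in the Gadd45 and Ccnd1 differences was not tested.

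Sex-linked genes also differed. The Y-linked genes Eif2s3y, Kdm5d and Uty were 2.28, 2.27 and 2.17 log2 units higher on the mutant-labelled arrays, and Xist was at -1.35. With these 4 arrays, genotype and the difference in sex-linked genes cannot be told apart for any of the 9 genes.

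To find genes with values like those of Gadd45g, each gene was centred on its own mean. Predicted genes, clone names, small RNAs and the other members were left out. Of the rest, the 5 detected genes nearest to Gadd45g over the 4 arrays were Cldn11, Il6, Fam180a, Bmp7 and Itpkc. Their Euclidean distances ran from 0.075 to 0.13 log2 units. Cldn11, a tight-junction claudin, was 1.44 higher in the mutant-labelled cultures, the cytokine gene Il6 1.46 higher and Bmp7, a bone morphogenetic protein, 1.27 higher. Gadd45b lay at a distance of 0.47 and the other 7 genes between 1.28 and 1.69. With 4 arrays in 2 groups, nearness mostly records a like difference between the groups.

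**Figure D4:**
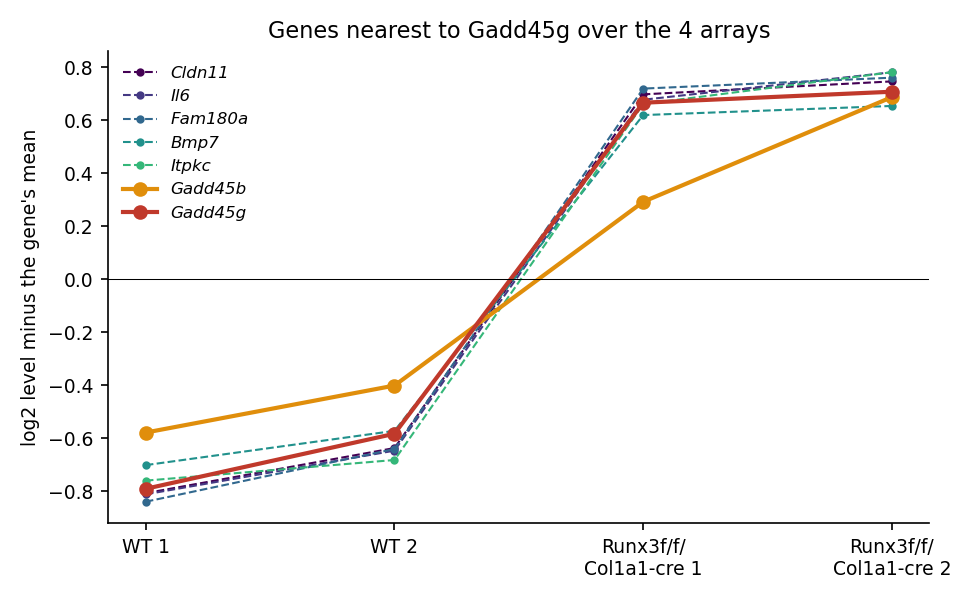
Log2 level of Gadd45g (red), Gadd45b (orange) and the 5 genes nearest to Gadd45g (dashed), each centred on its own mean (vertical axis), on the WT and Runx3f/f/Col1a1-cre arrays of replicates 1 and 2 (horizontal axis). The lines only join points of a gene. The dashed lines follow Gadd45g closely on all 4 arrays, and Gadd45b spans a smaller range.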

How the data were processed

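Per the submitters' processing notes, Partek and RMA made the deposited values, which are taken as log2 (range 2.26 to 14.1). No source used here states the log base, the centring or whether the authors normalized all arrays together. Rows were named through the platform annotation: 23521 rows had 1 symbol, 1814 several and 16010 none listed. Testing required 2 or more of the 4 arrays above 4.71, which is the 90th percentile of mean level over 1405 rows for olfactory or vomeronasal receptors; 17841 genes remained. Their median level was 7.53 on each array of replicate 1 and 7.81 on each of replicate 2. The fit used limma 3.58.1 under R 4.3.3 (lmFit and eBayes on all genes and arrays, genotype alone in the model, two-sided, Benjamini-Hochberg adjustment) and was tested on simulated data. The number of arrays limits precision, and p-values measure only the spread between these arrays. Alternatives covered the dim-gene filter, normalization, probe sets, variance trend, replicate block, each array left out and a 2-fold threshold.

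Named genes were the members, Runx3, 4 osteoblast genes, up to 3 genes of smallest p per list, and the 5 genes nearest to the member with the largest difference. Ccnd2, Ccnd3, Cdk4, Cdk6, Chac1, Adgre1, Cx3cr1, Aif1, Myod1, Myog, Acta1 and the sex-linked genes were added after their values were seen. The members and lists were chosen with earlier results of these data known. Promoter sequences are from RefSeq (GRCm38.p6).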

Additional observations from a re-analysis of the deposited data

How the results depend on the processing

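The direction of Gadd45b, Gadd45g, Cdkn1a, Cdkn1c, Cdkn2a and Ccnd1 was as reported in each of 12 settings. In several of these it could not change. The filters, the variance trend and the replicate block alone do not alter a difference, nor does the mean of probe sets where a gene has 1. Only normalization and leaving out an array could turn a sign. Genes past the adjusted threshold numbered 49 with an intensity trend and 335 with quantile normalization again and the replicate block. In each of those fits 1 member passed, Gadd45g, against 0 in the other settings. At 2-fold in place of 1.5-fold, 1 member passed by unadjusted p and 1 within both replicates, Gadd45g each time. Leaving out 1 array in turn, 1 to 2 members passed unadjusted p with 1.5-fold. The lone array of a group was assumed to vary like the other group, so these p-values take their spread from 1 group. The lower count, without mutant-labelled replicate 2, had Gadd45g alone. The within-replicate count could not be formed with an array left out. Over the same fits the difference of Gadd45g ran from 1.27 to 1.48, that of Gadd45b from 0.78 to 1.18 and that of Ccnd1 from -0.32 to -0.30, while Cdkn1a ran from -0.34 to -0.0084 (without WT replicate 1 and without WT replicate 2 at its ends), Cdkn2a from -0.30 to -0.045 and Cdkn1c from -0.18 to -0.052. The member median was -0.053 with median centring and lay between -0.052 and 0.020 when single arrays were dropped, while the median of all tested genes lay between -0.16 and 0.15. Signs turned, with an array left out, for Cdkn1b (-0.036 to 0.23), Cdkn2b (-0.052 to 0.13) and Cdkn2c (-0.048 to 0.020). In these fits the offset between replicates stays in the difference. Same-numbered arrays deviated together (Pearson r = 0.92 across genes, and 0.83 over the 7076 genes with no equal values), but no label ties a number to a common litter or day. With the replicate block alone, 0 genes passed the adjusted p and 2319 (13.0%) the unadjusted p, among them Gadd45b, Gadd45g, Cdkn1a and Ccnd1.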
